A study of Mus musculus with 4 samples.

Results

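The potassium channel genes are the 96 genes, of 31053 in the feature table, whose symbols begin with Kcn followed by letters and digits, without the antisense and pseudogene symbols that end in os, -ps or ot1. By symbol they fell into 40 voltage-gated pore subunits (Kcna, Kcnb, Kcnc, Kcnd, Kcnf, Kcng, Kcnh, Kcnq, Kcns and Kcnv), 8 calcium- or sodium-activated channels (Kcnma, Kcnn, Kcnt and Kcnu), 15 inward rectifiers (Kcnj), 14 tandem pore channels (Kcnk), 17 accessory genes (Kcnab, Kcne, Kcnip, Kcnmb and Kcnrg) and the opposite-strand transcripts Kcnmb4os1 and Kcnmb4os2, which the rule on symbols also takes in. The rule uses symbols and no measured value.

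Potassium channels let potassium leave or enter the cell and so set the resting potential, end action potentials and limit repetitive firing. Voltage-gated subunits assemble as tetramers and respond to depolarization, inward rectifiers pass current mainly near rest, tandem pore channels carry a background leak, and calcium- or sodium-activated channels link the current to ion entry. In the brain, neurons hold most of the voltage-gated diversity, astrocytes take up potassium through Kir4.1, and mural cells of small vessels carry the ATP-sensitive channel of Kir6.1 and its sulfonylurea receptor SUR2.

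Nuclei were taken from brains of male C57BL/6J mice aged 8 weeks, and all animals had received an adeno-associated virus of serotype AAV9 in the cisterna magna 4 weeks earlier. The AAV-VEGF-C groups received the full-length murine form of VEGF-C, a lymphangiogenic growth factor, and the AAV-CTRL groups received a soluble immunoglobulin fusion of VEGFR3 domains that does not bind VEGF-C, so that every mouse carried a vector with a secreted product. Tissue of 5 mice was pooled per AAV label, and the same mice gave the libraries labelled cortex and striatum. There were thus 4 groups with 1 library each (values are given in the order cortex AAV-CTRL, then cortex AAV-VEGF-C, then striatum AAV-CTRL, and last striatum AAV-VEGF-C), no test between groups was run, and each difference describes a pair of libraries and has no replicate check.

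The libraries held 17168, 20370, 23724 and 17466 nuclei with 63165470, 78332657, 77253372 and 67773329 UMIs (unique molecular identifiers, 1 per captured transcript), and 73139 nuclei were kept after removal of doublets. Pairs of libraries shared 76 to 118 nuclear barcodes, at most 0.66% of a library. Levels are in CPM, the UMIs of a gene per 1000000 UMIs of the nuclei named, and brackets give a 95% interval that covers counting error only. The region labels did not match the striatal markers: Ppp1r1b, a marker of striatal projection neurons, lay at 63.1, 75.8, 18.8 and 18.5 CPM, so it was higher in both libraries labelled cortex. Vegfc, the delivered gene, stood at 12.2, 11.8, 12.9 and 11.9 CPM over all kept nuclei and did not separate the AAV labels on that measure. The paper measured more VEGF-C protein in CSF and brain after the VEGF-C vector. It also reported higher Vegfc in smooth muscle cells, which a level over all nuclei does not address. Erythroid-like nuclei, which should lack neuronal transcripts, carried 7 pan-neuronal markers at a summed 5479, 5298, 4191 and 3912 CPM, against 7956 to 8984 in excitatory cortical-like nuclei.

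All 96 genes had at least 1 UMI, and 87 had at least 100. Together they gave 942215, 1125856, 948841 and 885312 UMIs, or 1.62%, 1.60%, 1.43% and 1.42% of all UMIs of kept nuclei. Voltage-gated pore subunits supplied 43.0% of these UMIs, accessory genes 39.8%, calcium- or sodium-activated channels 10.7%, inward rectifiers 4.15% and tandem pore channels 2.34%. The accessory share came mainly from Kcnip4, a KChIP protein that binds Kv4 channels, with 1327105 UMIs. Genes differ widely in length, and intronic reads of nuclear RNA grow with it, so levels were also divided by the span of the gene in kilobases. On that scale Kcna1, the axonal Kv1.1 subunit, stood highest at 15.9 CPM per kb, followed by Kcna2 (Kv1.2) at 9.32, Kcnj9 (a G-protein-gated Kir3.3 subunit) at 7.40 and Kcnf1 (a silent subunit that modifies other pore subunits) at 7.08, whereas Kcnip4, with a span of 1135 kb, stood at 4.55.

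Most nuclei fell into 21 classes named from marker genes, none of which is a potassium channel gene, and the channel genes were also kept out of the clustering. Outside these classes lay 16985 unresolved neurons of the 73139 kept nuclei (34.4% and 37.8% of the libraries labelled striatum, 9.21% and 9.90% of those labelled cortex). There were also 1190 further GABAergic neurons, 679 nuclei of cluster 66, with pericyte and endothelial markers, and 289 erythroid-like nuclei. The rest lay in small mixed, unnamed or olfactory sensory neuron-like clusters. Among them was a further mixed endothelial and pericyte cluster, with 313 nuclei before doublets were removed. A highest class is thus the highest among those of the 21 that held at least 100 UMIs of the gene. Classes with few nuclei seldom reached that minimum: 8 genes did in smooth muscle-like nuclei, against 69 in excitatory cortical-like nuclei. In at least 1 class, 82 of the 96 genes reached 1 CPM in every library that held the class (85.4%, against 58.9% of all genes). At least 100 UMIs in a class were found for 77 genes. Their highest class was neuronal for 52, glial or immune for 14, and vascular, meningeal or ventricular for 11. Of the 69 genes with at least 2 such classes, the libraries of the highest and the second class overlapped for 44. For these a highest class is that of the highest mean over libraries, and its order with the next class does not hold beyond the spread between libraries. A level at least 4-fold that of all other kept nuclei, in every library that held the class, was reached by 20 of the 77 genes (26.0%, against 20.7% of all genes tested): 5 of 35 voltage-gated pore subunits, 4 of 11 inward rectifiers, 3 of 10 tandem pore channels, 8 of 13 accessory genes and 0 of 7 calcium- or sodium-activated channels.

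**Figure D1:**
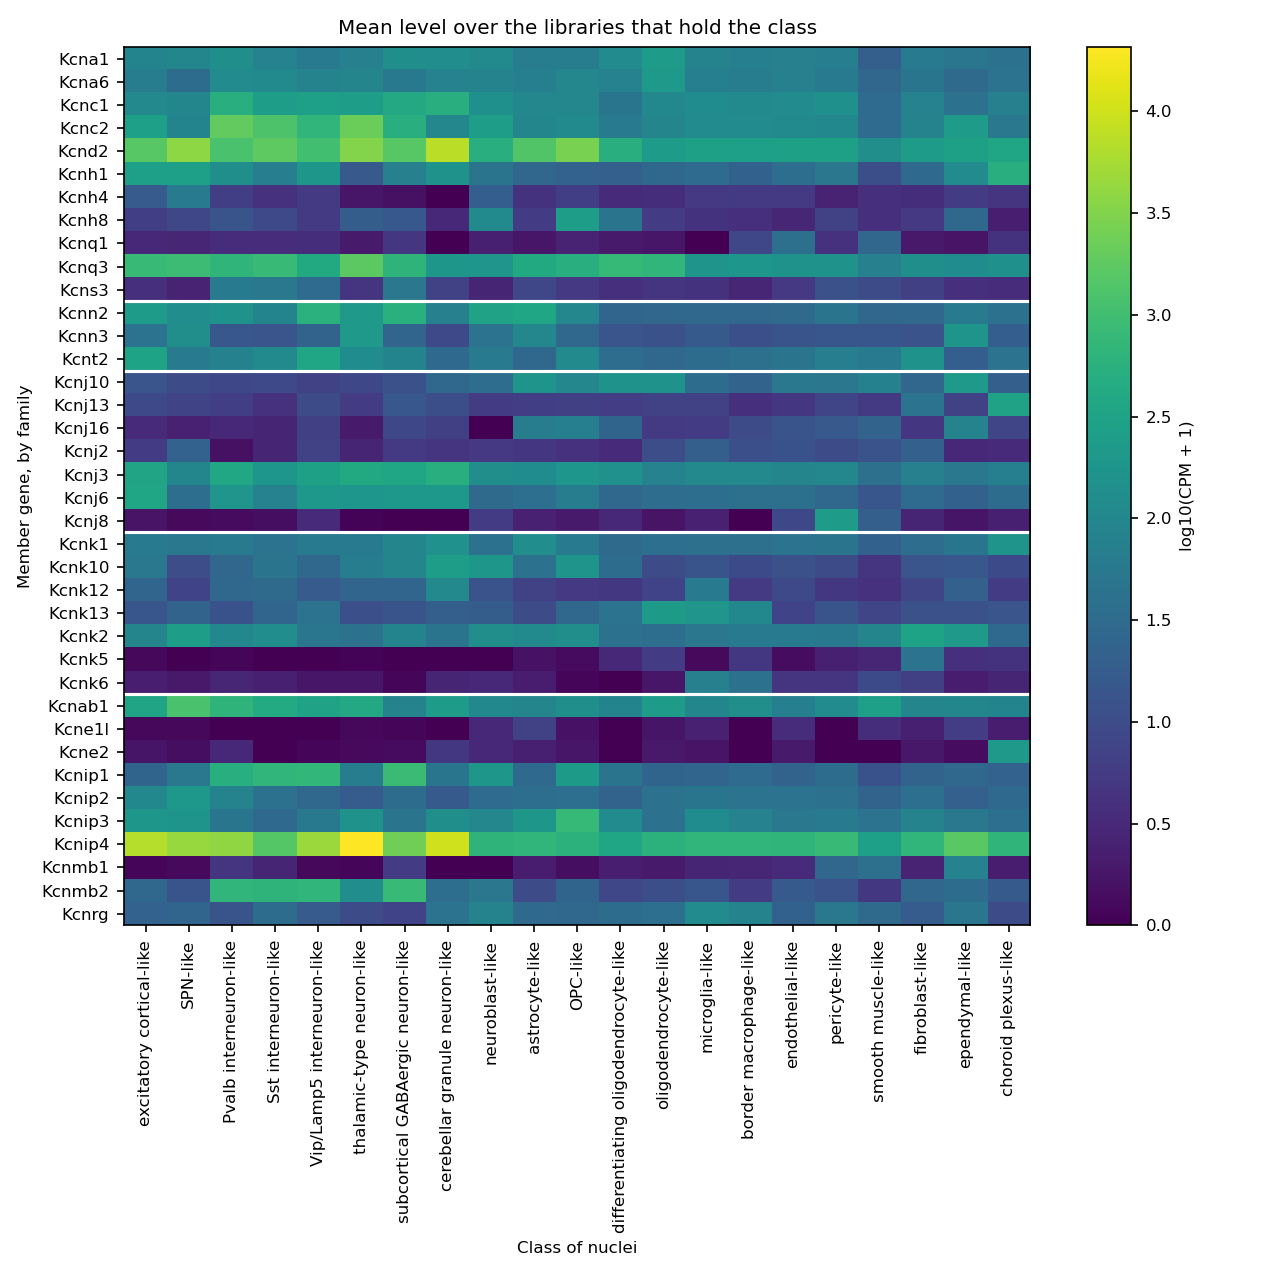
Mean level of genes that were at least 2-fold higher in a class, over the libraries that held it, as log10(CPM + 1). Rows are genes, ordered by family with white lines between families, and columns are classes. Kcne2 and Kcnj13 stand out in choroid plexus-like nuclei, Kcnj8 in pericyte-like nuclei and Kcnk6 in microglia-like nuclei, while Kcnd2 and Kcnip4 are high in most neuronal classes.

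Among the voltage-gated pore subunits, the Kcnc genes, whose fast channels are known from neurons that fire at high rates, differed in their highest class. Kcnc2 (Kv3.2, chromosome 10, 112271121 to 112467024) reached 2437, 2205 and 2069 CPM in thalamic-type-like neurons of the 3 libraries that held at least 20 of them (cortex AAV-VEGF-C, with 23 nuclei, and both libraries labelled striatum), which was 6.44- to 8.52-fold the other nuclei. In Pvalb interneuron-like nuclei Kcnc2 stood at 2288, 2165, 2070 and 1183, a range that overlapped the thalamic-type one. Kcnc1 (Kv3.1) was highest in the Pvalb interneuron-like nuclei, at 618, 654, 418 and 417 CPM, and overlapped cerebellar granule neuron-like nuclei. Kcnc4 (Kv3.4) had 48.8, 48.6, 50.5 and 57.4 in astrocyte-like nuclei, its highest class, and was at most 1.58-fold the other nuclei.

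Kcnd2 (Kv4.2, chromosome 6, 21215503 to 21729805), the main A-type channel of dendrites, had the second most UMIs of the 96 genes (442020). Its level was 8304 and 6323 CPM in cerebellar granule neuron-like nuclei and 3851, 3980, 3715 and 3649 in SPN-like nuclei (striatal projection neurons). OPC-like nuclei (oligodendrocyte precursors) carried it at 2579, 2515, 3178 and 2938, far above the 473, 342, 315 and 544 of erythroid-like nuclei. Its paralog Kcnd3 (Kv4.3) lay at 586, 480 and 468 in thalamic-type-like neurons, a range that overlapped Vip/Lamp5 interneuron-like nuclei.

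The M-current genes of the Kcnq family, which restrain repetitive firing, differed in their classes. Kcnq3 reached 1895, 1636 and 1561 CPM in thalamic-type-like neurons, 2.45- to 3.40-fold the other nuclei, and Kcnq5 reached 2225, 2166, 2817 and 2479 in SPN-like nuclei.

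Kcnq1 (Kv7.1, chromosome 7, 143106362 to 143427042), the slow delayed rectifier subunit of heart and epithelia, was the channel gene of endothelial-like nuclei. It lay at 36.9, 41.7, 38.1 and 35.6 CPM there (36 to 53 UMIs a library), 10.9- to 15.6-fold the other nuclei, and no library stood apart. Reads of the antisense transcript Kcnq1ot1, which overlaps Kcnq1 and is not among the 96 genes, lay at 120, 105, 132 and 136 in the same nuclei. In excitatory cortical-like nuclei Kcnq1ot1 lay at 387, 361, 485 and 416, and Kcnq1 at a mean of 2.08. Whether counting used the strand is not given in the sources used here, and the part of antisense reads was not tested. Smooth muscle-like nuclei, which also carried 11 endothelial markers at a summed 6603 to 8399 CPM (10630 to 11620 in endothelial-like nuclei), held Kcnq1 at 28.3, 34.1, 31.3 and 10.4.

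The ether-a-go-go genes included the channel gene of oligodendrocyte precursors. Kcnh8 (Kv12.1, chromosome 17, 52602709 to 52979194) stood at 215, 219, 299 and 303 CPM in OPC-like nuclei and was 9.96- to 34.6-fold higher than in the other nuclei. The ratio was 34.6 and 33.4 in the libraries labelled cortex and 9.96 and 10.9 in those labelled striatum. Differentiating oligodendrocyte-like nuclei were already lower, at 41.6, 29.2, 65.0 and 42.6. Kcnh1 (Kv10.1) had its highest level in choroid plexus-like nuclei, at 688, 471, 510 and 391, with 350, 326, 194 and 231 in excitatory cortical-like nuclei. Kcnh7 (Kv11.3) was highest in excitatory cortical-like nuclei, at 1543, 1535, 781 and 861, a range that overlapped Pvalb interneuron-like nuclei.

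Kcnh4 (Kv12.3) lay at 60.6, 64.7, 57.7 and 54.2 CPM in SPN-like nuclei, 3.92- to 18.8-fold the other nuclei. Kcns3, a silent subunit that modifies other pore subunits, lay at 85.0, 77.2, 47.9 and 27.4 in Pvalb interneuron-like nuclei (168, 195, 11 and 4 UMIs), and its lowest ratio of 3.47 rose to 6.13 without the last library. In Sst interneuron-like nuclei, held by the cortex libraries alone, it stood at 53.3 and 52.4, and in subcortical GABAergic neuron-like nuclei at 56.0, 73.2, 33.4 and 38.7, so these 3 classes overlapped. Oligodendrocyte-like nuclei had the highest means of the Kv1 genes Kcna1, at 244, 268, 223 and 235, and Kcna6, at 198, 219, 226 and 221, each at least 2.65-fold the other nuclei. Kcna1 overlapped subcortical GABAergic neuron-like nuclei, while Kcna6 did not overlap its next class. Kcna2 had its highest mean in subcortical GABAergic neuron-like nuclei at 247, 186, 185 and 154, where its range met that of cerebellar granule neuron-like nuclei. Of the subcortical GABAergic neuron-like nuclei, the libraries labelled cortex held only 21 and 31, and those labelled striatum 334 and 261.

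**Figure D2:**
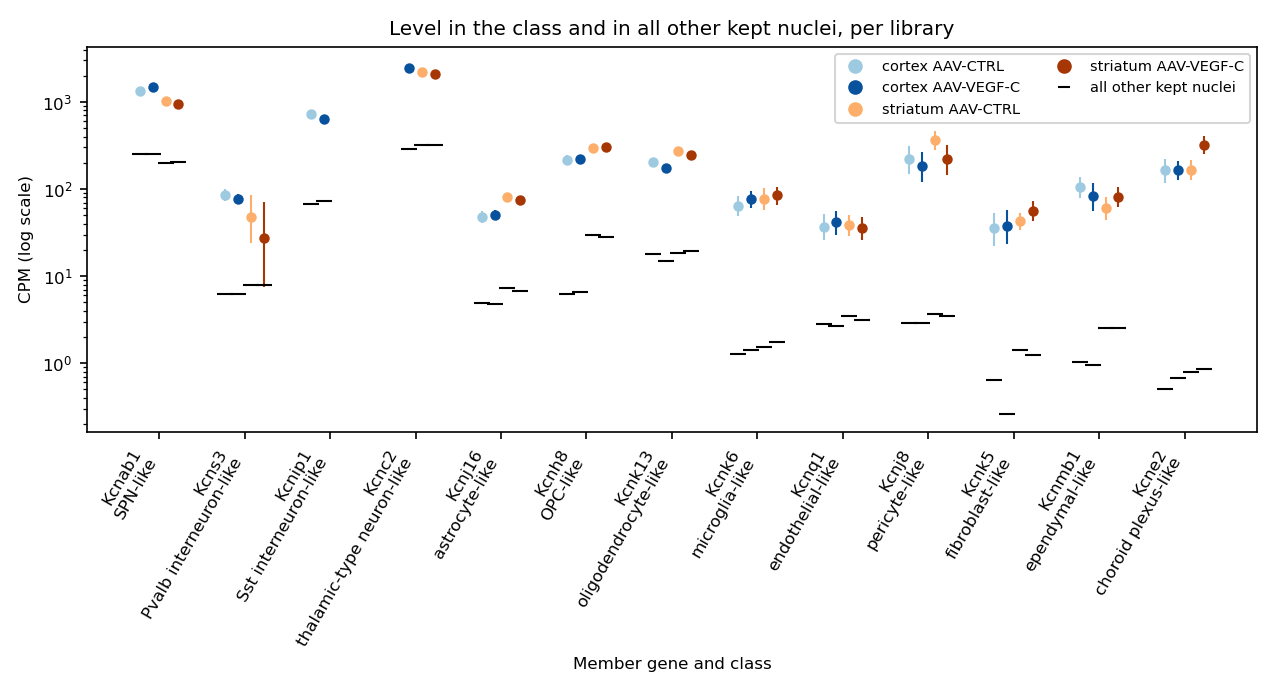
Level of 13 genes in the class named below each (points, 1 per library with its 95% counting interval) and in all other kept nuclei of the same library (black dashes), in CPM on a log scale. In each library that held the class the point lies above its dash, by the most for Kcne2 (163 to 322 CPM in choroid plexus-like nuclei).

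The calcium- or sodium-activated channels were spread over many classes. Kcnma1, the large-conductance BK channel, had at least 100 UMIs in all 21 classes and stood at 1917, 2755, 1612 and 1638 CPM in subcortical GABAergic neuron-like nuclei. This range overlapped thalamic-type-like neurons (1865 to 2044). The libraries labelled cortex held only 21 and 31 nuclei of the class, and the values with the label striatum lay below the thalamic-type range. Smooth muscle-like nuclei, a textbook site of BK current, carried Kcnma1 at 255, 287, 238 and 306, against 420, 435, 284 and 379 in erythroid-like nuclei. A level below that of erythroid-like nuclei does not show absence here. The 7 pan-neuronal markers summed to 1273, 1160, 1094 and 951 CPM in smooth muscle-like nuclei and to 5479, 5298, 4191 and 3912 in erythroid-like nuclei. Smooth muscle-like nuclei also carried the 11 endothelial markers at 6603 to 8399, against 5307 to 6824 for their own 7 markers. The SK channel Kcnn2 lay at 559, 593 and 546 in Vip/Lamp5 interneuron-like nuclei, and Kcnn3 at 199, 208 and 217 in thalamic-type-like neurons. The sodium-activated channel Kcnt2 (Slick) was 2.49- to 2.96-fold higher in excitatory cortical-like nuclei (360, 369, 289 and 255), where it overlapped Vip/Lamp5 interneuron-like nuclei, whereas its relative Kcnt1 (Slack) lay at 85.3, 92.6, 91.4 and 73.9 in SPN-like nuclei and overlapped fibroblast-like nuclei.

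Inward rectifiers were split between classes. Kcnj8, Kcnj10, Kcnj13 and Kcnj16 had their highest means in pericyte-like, ependymal-like or choroid plexus-like nuclei, and Kcnj2, Kcnj3, Kcnj4, Kcnj6, Kcnj9, Kcnj11 and Kcnj12 in neuronal classes. Kcnj8 (Kir6.1, chromosome 6, 142564837 to 142571614), the pore of the vascular ATP-sensitive channel, reached 219 [150, 309], 184 [121, 268], 363 [279, 464] and 219 [144, 318] CPM in pericyte-like nuclei, 62.3- to 98.2-fold the other nuclei. These rest on 32, 27, 63 and 27 UMIs, and the high value of striatum AAV-CTRL fell to 246 when cluster 66, with both pericyte and endothelial markers, was added. In that cluster alone Kcnj8 stood at 151, 160, 211 and 162, against 6.15, 6.95, 6.47 and 11.03 in endothelial-like nuclei. Abcc9, the SUR2 receptor that completes this channel, was 70.1-fold higher at least in pericyte-like nuclei, but it is also one of the markers that named the class. The pancreatic and neuronal subunit Kcnj11 (Kir6.2) gave 1, 3, 1 and 4 UMIs in pericyte-like nuclei.

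Kcnj10 (Kir4.1, chromosome 1, 172341210 to 172374085), the astrocytic channel of potassium uptake, lay at 106, 95.5, 230 and 262 CPM in astrocyte-like nuclei, 132, 130, 175 and 186 in oligodendrocyte-like nuclei and 213, 265, 176 and 180 in ependymal-like nuclei. Its partner Kcnj16 (Kir5.1) lay at 47.7, 50.4, 81.1 and 74.8 in astrocyte-like, 72.4, 69.4, 66.9 and 74.4 in OPC-like and 115, 109, 54.8 and 57.9 in ependymal-like nuclei. The ependymal-like and astrocyte-like ranges overlapped for both genes, and the OPC-like range of Kcnj16 overlapped both of its other ranges. With the label striatum both genes were higher in astrocyte-like than in ependymal-like nuclei, and with the label cortex they were lower. Kcnj10 in OPC-like nuclei was 78.3, 107, 91.8 and 118.

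Kcnj13 (Kir7.1), an epithelial potassium recycling channel, reached 205, 307, 296 and 400 CPM in choroid plexus-like nuclei, 28.6- to 52.3-fold the other nuclei (49.9-fold at least without cortex AAV-CTRL), and 44.6, 28.5, 35.1 and 63.8 in fibroblast-like nuclei. Kcnj2 (Kir2.1) and Kcnj4 (Kir2.3), which set the hyperpolarized rest of striatal projection neurons, were both highest in SPN-like nuclei, at 21.3, 20.6, 24.0 and 21.8 and at 89.6, 119, 85.4 and 96.2. The G-protein-gated subunit Kcnj6 (Kir3.2) led in excitatory cortical-like nuclei at 349, 349, 317 and 373, while Kcnj3 (Kir3.1) led in cerebellar granule neuron-like nuclei at 543 and 492.

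Some tandem pore genes led in microglia-like, oligodendrocyte-like and fibroblast-like nuclei, whereas Kcnk3, Kcnk4, Kcnk9 and Kcnk10 led in neuronal classes. Kcnk6 (TWIK-2, chromosome 7, 29221926 to 29232515) lay at 64.6, 77.0, 77.3 and 84.7 CPM in microglia-like nuclei, 48.1- to 54.5-fold the other nuclei, from 49 to 82 UMIs a library. Border macrophage-like nuclei held 59.6, 31.3, 46.9 and 24.3 from 12 UMIs or fewer. Kcnk13 (THIK-1, chromosome 12, 99964499 to 100062682), the microglial leak channel that supports surveillance, was found at 148, 151, 208 and 205 in microglia-like nuclei but at 202, 176, 275 and 244 in oligodendrocyte-like nuclei, so these 2 classes overlapped. Kcnk12 (THIK-2) was also highest in microglia-like nuclei, at 61.5, 61.01, 45.7 and 55.3.

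Fibroblast-like nuclei carried Kcnk5 (TASK-2), an acid-sensitive channel best known from kidney, at 35.4, 37.4, 42.9 and 56.2 CPM (23, 21, 77 and 59 UMIs), 30.5-fold the other nuclei at least. They also held Kcnk2 (TREK-1), a stretch- and lipid-gated channel, at 307, 303, 352 and 329, a range that overlapped SPN-like nuclei. Kcnk1 (TWIK-1) lay at 154, 151, 106 and 108 in astrocyte-like nuclei and 152, 186, 173 and 165 in choroid plexus-like nuclei. Kcnk10 (TREK-2) stood at 250 and 275 in cerebellar granule neuron-like nuclei and at 183, 148, 168 and 174 in OPC-like nuclei. Kcnk3 (TASK-1) lay at 101, 113, 43.3 and 39.5 in subcortical GABAergic neuron-like nuclei, where it overlapped Pvalb interneuron-like nuclei, with 9 and 17 UMIs behind the first pair of values.

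Accessory genes held the largest ratio of all. Kcne2 (chromosome 16, 92292389 to 92298129), a single-span subunit that partners Kcnq1 in epithelia, reached 163 [118, 220], 164 [126, 209], 167 [128, 215] and 322 [251, 407] CPM in choroid plexus-like nuclei, at least 212-fold the other nuclei. Those levels rest on 43, 65, 61 and 70 of its 420 UMIs, and 0 UMIs were found in erythroid-like nuclei. Kcnmb1, the BK beta subunit of smooth muscle, lay at 20.2, 25.6, 50.6 and 54.1 in smooth muscle-like nuclei (5, 9, 21 and 26 UMIs) but was higher in ependymal-like nuclei, at 105, 82.1, 60.4 and 81.7, 24.1- to 101-fold the other nuclei. The X-linked Kcne1l was 7.61-fold higher at least in astrocyte-like nuclei at only 4.54 to 6.97 CPM.

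Kcnmb2, the BK beta subunit that inactivates the channel, was high in the GABAergic classes other than SPN-like nuclei. Its level was 870, 803, 641 and 404 CPM in Pvalb interneuron-like nuclei, 774, 1344, 585 and 718 in subcortical GABAergic neuron-like nuclei and 618, 538 and 960 in Vip/Lamp5 interneuron-like nuclei. SPN-like nuclei held 10.8, 12.5, 16.6 and 8.61. Kcnip1 (KChIP1) was high in the same classes, with 475, 517, 623 and 438 in Pvalb interneuron-like, 723 and 640 in Sst interneuron-like and 751, 1344, 682 and 724 in subcortical GABAergic neuron-like nuclei. In Vip/Lamp5 interneuron-like nuclei it stood at 865, 844 and 414, and its lowest ratio of 2.13 rose to 13.4 without striatum AAV-CTRL. The annotated Kcnip1 span overlaps 4930469K13Rik on the same strand, so its reads are uncertain.

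The KChIP genes, calcium sensors that speed Kv4 recovery, were split between classes. Kcnip4 reached 20310, 20990 and 20790 CPM in thalamic-type-like neurons, 4.20-fold the other nuclei at least (6.73-fold without cortex AAV-VEGF-C), and the erythroid-like nuclei still carried 839, 730, 1355 and 1262. Kcnip2 lay at 228, 239, 163 and 154 in SPN-like nuclei, 3.04- to 6.40-fold the other nuclei. Kcnip3 (also known as DREAM) was highest in OPC-like nuclei, at 632, 667, 850 and 971, with no overlap with the next class, excitatory cortical-like nuclei. The Kv1 beta subunit Kcnab1 (chromosome 3, 65109384 to 65378223) stood at 1346, 1474, 1019 and 955 in SPN-like nuclei, 4.63- to 5.78-fold the other nuclei. Kcnrg, a regulator that binds the Kv1 assembly domain, lay at 112, 125, 126 and 121 in microglia-like nuclei.

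Neighbouring types within a class were also compared, in each library that held at least 20 nuclei of both. Between D1 SPN-like and D2 SPN-like nuclei, 2 of 60 channel genes were past 2-fold in the same direction in all 4 libraries, against 0.506% of all genes tested. Kcnk13 was higher in D1 SPN-like nuclei, at 51.7, 35.1, 21.1 and 22.1 CPM against 13.9, 9.62, 9.59 and 5.74, a log2 difference of 1.89, 1.87, 1.14 and 1.95. Kcnmb2 was lower in them, at 2.43, 7.02, 11.4 and 2.01 against 19.3, 18.6, 25.2 and 17.2. Both rest on few UMIs, 5 to 36 in the lower type for Kcnk13 and 2 to 27 for Kcnmb2.

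Layer 6 type and layer 2/3 type excitatory-like nuclei of the libraries labelled cortex differed in many of the channel genes. Past 2-fold in both libraries were 16 of 63 genes, 6 higher and 10 lower in layer 6 type nuclei (7.98% of all genes tested). Kcnk2 was higher in layer 6 type nuclei, at 179 and 185 CPM against 36.5 and 36.5, with Kcnab1, Kcna6, Kcnn1, Kcnip3 and Kcnn2 in the same direction. The M-current gene Kcnq5 was lower, at 450 and 411 against 2201 and 2105. Likewise Kcnb2, a delayed rectifier, stood at 209 and 213 against 1088 and 1079, and Kcnc2 at 78.1 and 72.2 against 365 and 360. The other genes lower in layer 6 type nuclei were Kcng3, Kcnk13, Kcnip4, Kcnh4, Kcnj2, Kcnh5 and Kcnip2.

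Whether the VEGF-C vector moved channel expression was asked by dividing the AAV-VEGF-C level by the AAV-CTRL level within each region label, in genes with at least 100 UMIs over the pair. Over all kept nuclei of the libraries labelled cortex, 0 of 77 channel genes were past 1.5-fold in either direction, where 0.399% of all genes were higher and 0.705% lower. Their median log2 ratio was 0.02, against -0.01 for all genes. With the label striatum 0 of 84 were higher (0.966% of all genes) and 2 were lower (1.79% of all genes), with a median of 0.00 in both sets.

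Kcnj15 (Kir4.2) gave 1, 7, 125 and 6 UMIs, so the library striatum AAV-CTRL stood far above the other 3. Its log2 ratio under the label striatum was -4.28 [-5.76, -3.12]. Of the 125 UMIs, 54 came from 1 cluster of unresolved neurons (1 UMI in the AAV-VEGF-C library) and 24 from an unnamed cluster led by Aox2, Abca13, Muc16 and Cyp2g1, which held 83 nuclei in striatum AAV-CTRL and 4 in striatum AAV-VEGF-C. Their part in the result was not tested. Kcnj15 reached the minimum of 100 UMIs through that 1 library, and it was no longer among the genes counted after thinning to 1000 UMIs per nucleus or at a minimum of 200 UMIs.

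Kcnh3 (Kv12.2) had 598 UMIs in striatum AAV-CTRL and 358 in striatum AAV-VEGF-C, or 8.99 and 5.76 CPM, a log2 ratio of -0.64 [-0.84, -0.45]. These libraries held 297 and 88 excitatory cortical-like nuclei, a class that carries Kcnh3, and without that class the log2 ratio was -0.56 [-0.76, -0.36]. Within SPN-like nuclei Kcnh3 stood at 65.2, 58.2, 51.7 and 57.7, so the last pair did not fall. The next largest ratios stayed under 1.5-fold: Kcnmb1 at -0.47, Kcna5 (Kv1.5) at 0.40 and Kcne2 at 0.37 with the label cortex, and Kcnj11 at 0.49 with the label striatum.

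**Figure D3:**
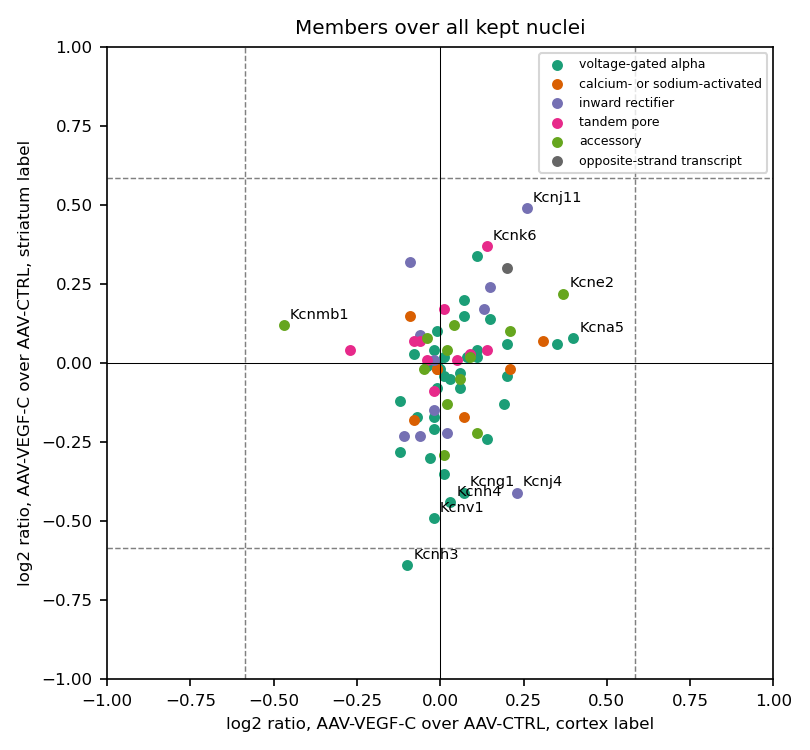
Log2 ratio of AAV-VEGF-C over AAV-CTRL for the 77 channel genes with at least 100 UMIs under both region labels, over all kept nuclei, with the label cortex on the horizontal and the label striatum on the vertical axis. Points are genes, coloured by family, and dashed lines mark 1.5-fold. Only Kcnh3 lies past a line, at -0.64 on the vertical axis, and Kcnj15, with 8 UMIs under the label cortex, is not drawn.

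Class by class, 33 of 865 combinations of gene, class and region label were past 1.5-fold (3.82%), where all genes gave 2.74%. In the libraries labelled cortex, excitatory cortical-like, SPN-like, Sst interneuron-like, astrocyte-like and OPC-like nuclei held none, of 69, 53, 34, 49 and 34 genes tested, and with the label striatum the SPN-like, astrocyte-like, OPC-like, oligodendrocyte-like and microglia-like nuclei held none, of 37, 49, 33, 50 and 17. In these sets 0.887% to 2.84% of all genes were past 1.5-fold, and the median log2 ratios of channel genes ran from -0.06 to 0.02. Fibroblast-like nuclei with the label cortex also held none of 14 genes (3.39% of all genes), with a median of 0.11. Sets of 1 to 5 genes without a call are not listed. Larger sets with calls also lay outside that range, as fibroblast-like nuclei with the label striatum (26 genes, -0.12) and endothelial-like nuclei with the label cortex (25 genes, -0.09). Small sets had larger medians in either direction. Choroid plexus-like nuclei stood at -0.47 (label cortex, 10 genes) and -0.38 (label striatum, 5 genes), and ependymal-like nuclei at 0.31 (label cortex, 11 genes). In the same direction with both region labels, 2 of 264 combinations of gene and class were past 1.5-fold (0.164% of all gene and class combinations).

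Both were Kcnip4, in classes that hold little of it. In smooth muscle-like nuclei Kcnip4 stood at 287, 139, 422 and 254 CPM, a log2 ratio of -1.04 [-1.60, -0.50] with the label cortex and -0.73 [-1.08, -0.39] with the label striatum. In choroid plexus-like nuclei it stood at 1011, 501, 740 and 446, or -1.01 [-1.28, -0.74] and -0.73 [-1.08, -0.39]. Every one of these levels lay below the 839, 730, 1355 and 1262 of erythroid-like nuclei in the same library except the first choroid plexus-like value, and the part of free RNA in them was not tested. The 7 pan-neuronal markers summed to 951 to 1273 CPM in smooth muscle-like, 1834 to 2581 in choroid plexus-like and 3912 to 5479 in erythroid-like nuclei. The choroid plexus-like ratio turned to 0.28 with the label cortex when all deposited nuclei were kept and to 0.02 with the label striatum after thinning to 1000 UMIs per nucleus, and 26.4% of all genes were past 1.5-fold in that class and region label.

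Further ratios past 1.5-fold were seen with the label striatum. In choroid plexus-like nuclei Kcne2 went from 167 to 322 CPM (log2 ratio 0.95 [0.43, 1.47]) and stood at 163 and 164 with the label cortex. The 7 choroid plexus markers of the same nuclei moved from a summed 36070 to 81890 CPM with the label striatum and from 45900 to 68070 with the label cortex, and their part in the result was not tested. Kcnj11 in thalamic-type-like neurons of the libraries labelled striatum gave 58 and 149 UMIs, or 7.39 and 16.1 CPM (1.13 [0.68, 1.59]). Over the other kept nuclei of these libraries its log2 ratio was 0.40 [0.24, 0.56]. Kcnj13 in fibroblast-like nuclei went from 35.1 to 63.8 with the label striatum (0.86 [0.34, 1.38]) and from 44.6 to 28.5, on 29 and 16 UMIs, with the label cortex. The class values of these 3 genes were picked out after they were seen.

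**Figure D4:**
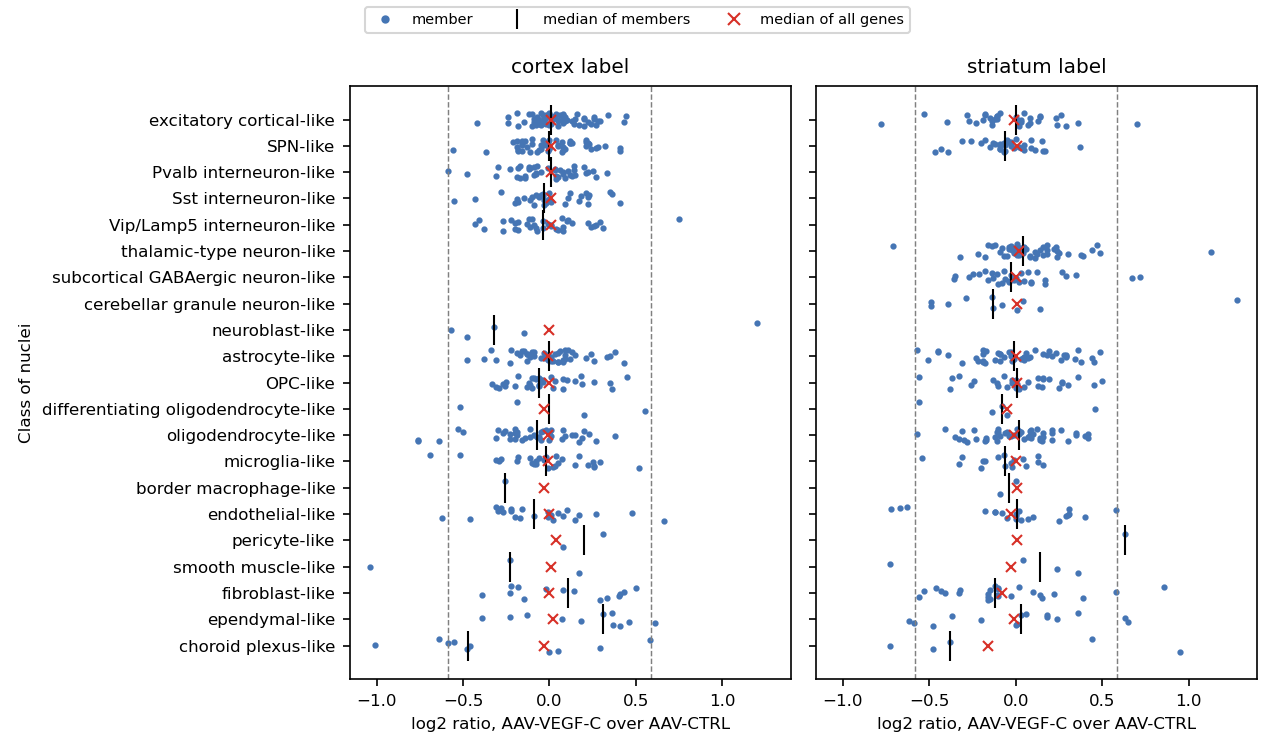
Log2 ratio of AAV-VEGF-C over AAV-CTRL per class, for the libraries labelled cortex (left) and striatum (right). Blue points are channel genes with at least 100 UMIs over the pair, black bars their median, red crosses the median of all genes, and dashed lines 1.5-fold. Medians lie near 0 in classes with many genes tested, and points spread further in the small classes at the bottom.

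Between region labels, a gene was counted when the striatum level was past 2-fold the cortex level, or below it, in the same direction in both AAV labels. This was so for 48 combinations of gene and class. Excitatory cortical-like nuclei held 11 of 67 (3.76% of all genes), SPN-like 1 of 49 (1.47%), astrocyte-like 14 of 49 (5.32%), OPC-like 2 of 33 (2.38%), oligodendrocyte-like 11 of 48 (4.08%), microglia-like 3 of 22 (3.86%), endothelial-like 4 of 23 (3.42%) and fibroblast-like 2 of 18 (2.42%). The 6 other classes held 0 of 29 (1.89%). Different clusters made up several of these classes in the libraries of each label, so a region difference and a difference between cell types cannot be told apart.

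In astrocyte-like nuclei the A-type channel gene Kcnd2 was higher with the label striatum. It stood at 531 and 499 CPM with the label cortex and 2268 and 2224 with the label striatum, a log2 difference of 2.09 [2.02, 2.17] for AAV-CTRL and 2.16 [2.09, 2.22] for AAV-VEGF-C, and no pair overlapped. Cluster 2, named telencephalic astrocyte-like, held 96.2% and 97.2% of the astrocyte-like nuclei of the libraries labelled cortex, and cluster 3, named non-telencephalic, held 86.7% and 92.1% of those labelled striatum. Within a library the clusters differed in the same way: Kcnd2 was at 489, 463, 568 and 707 in telencephalic and at 1541, 1804, 2529 and 2370 in non-telencephalic astrocyte-like nuclei, a log2 difference of 1.65, 1.96, 2.15 and 1.74. The telencephalic values were near the 473, 342, 315 and 544 of erythroid-like nuclei.

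Of 59 channel genes tested, Kcnd2 and Kcnt1 were the 2 past 2-fold between these astrocyte types in all 4 libraries (1.17% of all genes). Kcnt1 stood at 31.6, 36.0, 38.4 and 31.8 in telencephalic against 86.0, 75.9, 85.2 and 81.8 in non-telencephalic nuclei. Kcnj10 was also higher in non-telencephalic nuclei, at 97.2, 91.2, 147 and 122 against 315, 253, 242 and 275, and missed 2-fold in striatum AAV-CTRL alone. Kcnj16 showed no such step: its log2 difference was 0.46, -0.26, 0.24 and 0.70.

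Among the genes past 2-fold in glial and vascular classes, most were lower with the label striatum, as in oligodendrocyte-like nuclei, where all 11 were. Others were higher without passing 2-fold in both pairs: Kcnc2 stood at 67.4, 62.6, 112 and 125 CPM in oligodendrocyte-like nuclei, and Kcnc1 at 85.1, 84.3, 149 and 156 in endothelial-like nuclei. Kcnh7 stood at 244, 215, 82.0 and 76.5 in microglia-like and 343, 249, 31.5 and 58.2 in erythroid-like nuclei (1 and 6 UMIs in the last pair). Kcnq5 stood at 211, 130, 47.3 and 34.1 in microglia-like nuclei against 229, 388, 189 and 29.1 in erythroid-like nuclei. Fibroblast-like nuclei held the same direction for Kcnh7, at 201, 222, 57.9 and 42.8, and so did OPC-like nuclei, with 243, 228, 120 and 92.8.

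Larger differences were seen for Kcnv1, a silent modifier subunit, and Kcnj4. Kcnv1 went from 34.5 and 30.9 to 3.27 and 2.32 CPM in oligodendrocyte-like nuclei and from 33.2 and 30.3 to 2.73 and 1.16 in astrocyte-like nuclei, and erythroid-like nuclei held 53.4 and 109 with the label cortex and 0 UMIs with the label striatum. Kcnj4 went from 57.7 and 57.7 to 7.95 and 4.06 in oligodendrocyte-like nuclei. The 6 markers of excitatory cortical neurons moved alongside, from a summed 1024 and 910 to 132 and 105 in oligodendrocyte-like nuclei, and from 1541 and 1398 to 252 and 175 in erythroid-like nuclei. Their part in these results was not tested.

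**Figure D5:**
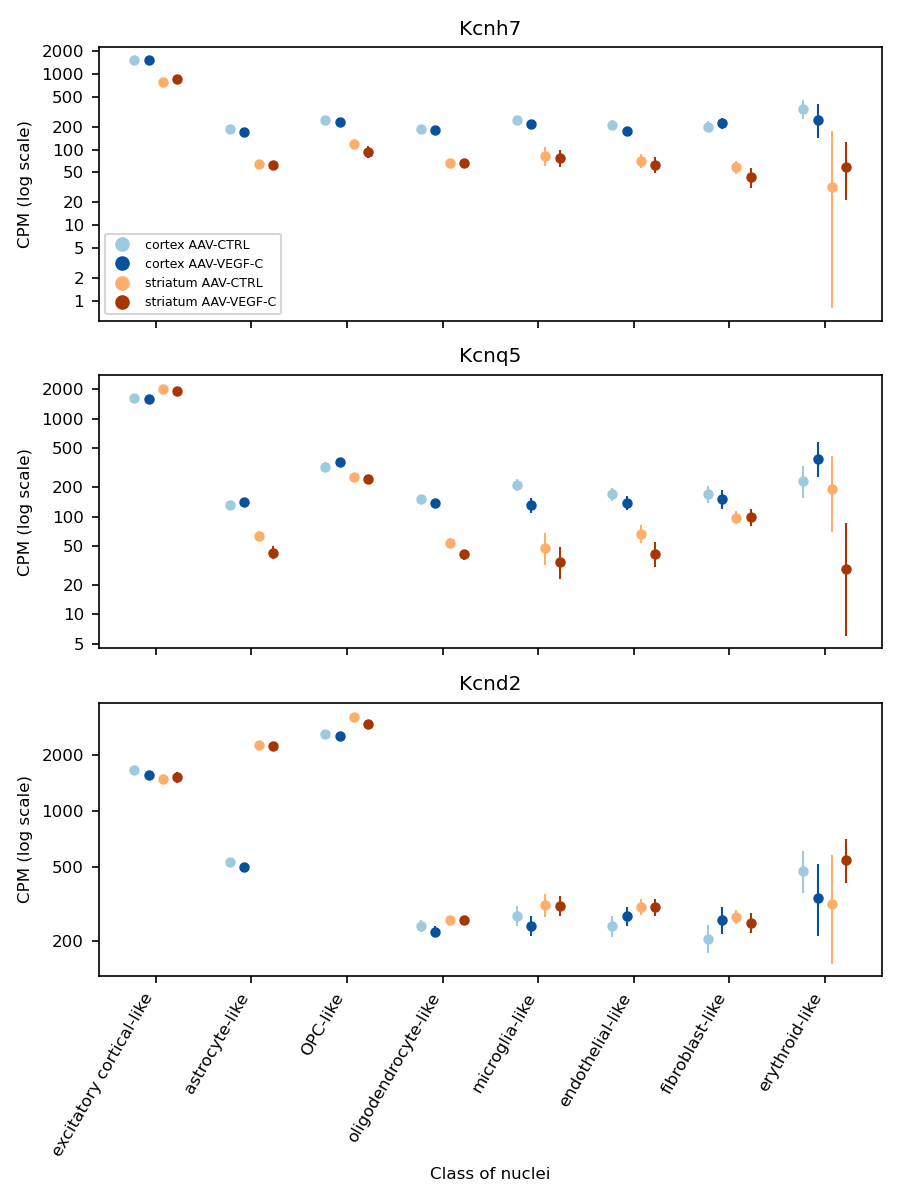
Level of Kcnh7, Kcnq5 and Kcnd2 in 8 classes, as CPM on a log scale with 95% counting intervals, 1 point per library. Kcnh7 is lower in both libraries labelled striatum in every class drawn, erythroid-like nuclei included, whereas Kcnd2 is higher in astrocyte-like nuclei, with 499 and 531 under the label cortex and 2224 and 2268 under the label striatum.

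Other genes rose with the label striatum. In OPC-like nuclei Kcnk3 lay at 22.5 and 26.3 CPM with the label cortex and 56.3 and 58.9 with the label striatum, log2 differences of 1.32 [0.64, 2.06] and 1.16 [0.56, 1.79]. In SPN-like nuclei Kcnip1 lay at 26.6 and 26.7 and at 88.2 and 65.3. Cluster 90, a D1-type group led by Drd3, held 102, 83, 106 and 62 nuclei before doublets were removed, beside 1271, 1560, 480 and 366 SPN-like nuclei kept. In endothelial-like nuclei Kcnj10 lay at 24.6 and 35.7 and at 59.7 and 89.1, and the part of glial RNA there was not tested: the 9 astrocyte markers stood at a summed 1672, 2574, 1549 and 1830 and the 9 oligodendrocyte markers at 1108, 1036, 2626 and 2871.

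Excitatory cortical-like nuclei with the label striatum were few, 297 and 88, and their largest cluster was 21 (40.4% and 46.6%). With the label cortex cluster 5 was the largest (30.5% and 28.9%). The leading genes of cluster 21 included Spink8, Fibcd1 and Pkp2, and those of cluster 5 Nrgn and Tbr1. Whether cluster 21 holds neurons of the cortex was not tested, so the differences below cannot be told apart from a difference between cell types. The silent subunits Kcng1, Kcng2 and Kcng3 were higher with the label striatum. Kcng2 went from 6.69 and 7.71 to 39.7 and 31.1 CPM, Kcng1 from 16.3 and 16.6 to 52.7 and 52.5 and Kcng3 from 5.76 and 6.47 to 20.1 and 19.4. Kcnmb2 went from 10.7 and 14.5 to 39.7 and 46.7, and Kcnj10 from 6.38 and 5.88 to 18.9 and 19.4. Kcnk2, Kcns1, Kcnh4, Kcnj2 and Kcnh5 were higher with the label cortex.

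Of 19 partner genes listed for these channels, 17 could be tested between the AAV labels in each region. Past 1.5-fold were 0 of them (1.1% of all genes with the label cortex and 2.75% with the label striatum). The list held auxiliary subunits (Dpp6, Dpp10, Abcc8, Abcc9, Amigo1, Lgi1, Lrrc26, Lrrc38, Lrrc52 and Lrrc55), axonal anchors (Cntn2 and Cntnap2), sodium pump subunits and the chloride cotransporters Slc12a2 and Slc12a5. Cntn2, which clusters Kv1 channels beside the node of Ranvier, was highest in oligodendrocyte-like nuclei, at 364 to 481 CPM and at least 7.11-fold the other nuclei. This class also had the highest means of Kcna1 and Kcna6, and Kcna1 overlapped subcortical GABAergic neuron-like nuclei. The other axonal anchor, Cntnap2, had its highest mean in Pvalb interneuron-like nuclei, at 2441 to 5655 CPM, with a lowest ratio of 0.970 to the other nuclei.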

How the data were processed

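Single-nucleus RNA was measured with 10x Chromium 3′ v3 in 4 libraries, 1 per group. The authors deposited UMI counts per gene and nucleus, aligned to mm10; the file headers name cellranger 5.0.1 and the submitters' notes Cell Ranger 5.1.1, and whether intronic or stranded reads were counted is not given in the sources used here. The 78728 deposited nuclei are as many as the study gives, and the lowest had 719 UMIs, so the authors' filters (nuclei under 200 UMIs, clusters under 1000 counts) appear to have been applied before deposit. Their clusters were not used here.

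From the deposited counts, doublets were called with Scrublet (scanpy 1.11.5, expected rate 8%) and removed with clusters over 40% doublets. Nuclei were clustered on 5000 variable genes without the channel genes (50 components, 15 neighbours, Leiden resolution 1.2, leidenalg 0.10.2) and classes named from marker lists. The naming rule and the 40% limit were revised after the clusters were seen. The genes were chosen by symbol, but this family, the textbook set and the other lists were taken up with earlier results of these data known. All 96 genes were matched to GENCODE vM21 (GRCm38) for spans and coordinates.

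Counts were summed per class and library. A class was held by a library with at least 20 nuclei, and compared between libraries with at least 30. Intervals are exact Poisson (levels) or conditional binomial (ratios) at 95% and cover counting error only. No test between groups was made, each having 1 library. Genes needed at least 100 UMIs, and calls were past 1.5-fold (AAV) or 2-fold (region). Named were, per class, up to 4 genes at least 2-fold higher in every library, a textbook set, and the genes past those folds in both labels. Alternatives changed the nuclei kept, depth, scaling, UMI minimum, resolution and clustering genes. Some genes of the textbook set and of the counts are not reported here by name.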

Additional observations from a re-analysis of the deposited data

Results flagged for a closer look

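In ependymal-like nuclei the log2 ratio of AAV-VEGF-C over AAV-CTRL for Kcnc2 was 0.61 [0.23, 0.98] with the label cortex, from 232 to 353 CPM, and -0.59 [-0.96, -0.23] with the label striatum, from 230 to 153. The libraries thus moved in opposite directions under the 2 region labels. With 1 library per group the difference was not tested.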

How the results depend on the processing

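With 1 library per group no comparison has a replicate check, and depth limits small classes: the median width of a log2 ratio's interval to either side was 0.31. No paired analysis was possible because the results come from no test, and the region comparison was made within each AAV pool of mice. Of the 20 genes at least 4-fold higher in a class, 12 were counted after thinning to 1000 UMIs per nucleus, and leaving out each library gave 18 to 21. The 82 genes reaching 1 CPM in a class became 82 to 84. Between AAV labels over all nuclei, the counts past 1.5-fold (0 with the label cortex, 2 with the label striatum) became 1 with the label cortex with all deposited nuclei kept, 4 with the label striatum after thinning, 1 with the label striatum at a minimum of 200 UMIs, and 7 and 11 at a minimum of 1 UMI. Summed over classes, the 14 and 19 past 1.5-fold became 6 and 10 after thinning, 3 and 9 at 200 UMIs and 517 and 527 at 1 UMI. The 48 combinations past 2-fold between region labels became 29 after thinning and 247 at 1 UMI. The ratio of Kcnip4 in choroid plexus-like nuclei turned to 0.28 (label cortex, all deposited nuclei kept) and 0.02 (label striatum, thinned), and the cause was not tested. Of the other values for single genes, 457 moved by less than their counting interval and 14 by more. The settings that leave out a library, and the one that adds cluster 66, with pericyte and endothelial markers, were chosen after seeing the data.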

Other observations

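Transcripts left out by the rule on symbols were also counted over all kept nuclei. Kcnq1ot1 stood at 343, 318, 436 and 357 CPM, Kcnd3os at 5.04, 4.56, 4.001 and 3.69, and Kcnab3os at 0.789, 1.18, 0.647 and 1.06.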
